A study of Mus musculus with 20 samples.

Results

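The 41 type I interferon-stimulated effector genes are the antiviral and signalling genes that cells switch on after type I interferon. They were taken by symbol from a list, and all 41 were found by Ensembl identifier in the distal colon count table. The whole table held 26619 gene identifiers, of which 17893 had enough counts to be tested, the 41 genes among them. The study asked how resistant potato starch (RPS), which the sample labels call raw potato starch, changes gene expression in the gut of mice on a Western-style diet. C57BL/6 mice received the Total Western Diet (TWD), a rodent diet built on the typical American intake of nutrients, for 6 weeks. They then stayed on the TWD with 0% RPS or moved to the TWD with 2, 5 or 10% RPS for 3 weeks, with 5 mice in each diet and 1 RNA-seq library from the distal colon of each of the 20 mice. All 4 groups shared the strain, the basal diet and the feeding period before the switch, so the 0% RPS mice are controls for the starch and not for the Western diet.

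Type I interferons bind the receptor IFNAR1/IFNAR2, which activates the kinases JAK1 and TYK2. These phosphorylate STAT2, which acts with IRF9 and binds the interferon-stimulated response element (ISRE) in the promoters of target genes. The products include RNA-binding proteins, GTPases, ubiquitin-like modifiers and nucleotide enzymes that hinder viral replication, and the gut epithelium and the leukocytes under it keep a low level of these transcripts without infection.

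The libraries held 31254832 to 34974230 counts in the 0% RPS mice, 24516418 to 31126954 at 2%, 22318531 to 30365108 at 5% and 18429493 to 26595092 at 10%, so depth was lower at 10% RPS than in any control. The lowest count of any of the 41 genes in a library was 23 and the highest was 12580. Values are given as CPM, the counts divided by the scaled library size, and 3 counts, taken as the detection limit, were worth between 0.085 and 0.163 CPM. The description and treatment labels disagree for 3 mice: mouse RS10_717 (5% by description, 2% by treatment), mouse RS10_725 (10% and 5%) and mouse RS10_748 (2% and 10%). Groups below follow the description. Values of every mouse are listed in the order RS10_701, RS10_703, RS10_704, RS10_707 and RS10_708 at 0% RPS, RS10_709, RS10_712, RS10_748, RS10_715 and RS10_716 at 2%, RS10_717, RS10_718, RS10_719, RS10_721 and RS10_724 at 5%, and RS10_725, RS10_727, RS10_729, RS10_731 and RS10_784 at 10%. The tissue markers fitted colon wall, with high summed CPM of colon epithelium genes (5637 to 8497 CPM over the mice) and smooth muscle genes (5139 to 11099 CPM). The 5 HOX genes that mark the distal segment were detected, with sums of 711.9 to 929 CPM in the controls and 705 to 827 CPM at 2%. The sums ran from 528 to 823 CPM at 5% and from 627 to 726 CPM at 10% RPS. At 10% RPS, 1 of the 5 was lower at an unadjusted p under 0.05 (7.87% of all genes were). Hoxb13 had a called lower trend (adjusted p = 0.0142), and the share of all genes with a called lower trend was not taken. Mouse RS10_721 (5% RPS) also carried 4786 CPM and mouse RS10_784 (10% RPS) 426 CPM of 7 pancreatic acinar genes, which summed to between 0.465 and 13.1 CPM in the other mice.

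The promoters of the 3 genes that passed the dose test come first, from 250 bases before to 50 bases after the start of the canonical transcript (GRCm39, GENCODE annotation). Capitals mark the ISRE core, searched on both strands as GAAA, any 2 bases and GAAA, with overlapping matches counted.
Isg15 promoter, chr4:156285254-156285553, minus strand: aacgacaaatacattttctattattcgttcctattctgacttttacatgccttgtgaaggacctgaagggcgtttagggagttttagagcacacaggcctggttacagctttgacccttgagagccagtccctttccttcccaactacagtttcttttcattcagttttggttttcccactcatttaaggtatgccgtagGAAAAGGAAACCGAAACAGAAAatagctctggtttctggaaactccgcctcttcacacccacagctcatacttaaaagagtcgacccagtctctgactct
Mx1 promoter, chr16:97264057-97264356, minus strand: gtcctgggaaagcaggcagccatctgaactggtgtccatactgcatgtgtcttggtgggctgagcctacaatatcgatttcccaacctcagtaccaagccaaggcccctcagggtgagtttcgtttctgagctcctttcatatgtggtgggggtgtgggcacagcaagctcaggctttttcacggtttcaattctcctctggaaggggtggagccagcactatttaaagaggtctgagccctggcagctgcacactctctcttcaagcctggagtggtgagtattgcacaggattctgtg
Parp12 promoter, chr6:39095524-39095823, minus strand: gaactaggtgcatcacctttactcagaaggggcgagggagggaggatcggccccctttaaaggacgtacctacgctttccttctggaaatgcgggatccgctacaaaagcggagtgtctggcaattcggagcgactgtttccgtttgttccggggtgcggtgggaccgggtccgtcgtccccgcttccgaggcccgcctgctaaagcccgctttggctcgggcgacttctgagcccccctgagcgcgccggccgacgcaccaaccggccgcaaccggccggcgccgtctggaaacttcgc
The Isg15 promoter held 3 overlapping cores within a few bases of each other, the first starting 50 bases before the transcript start. The Mx1 and Parp12 windows held none in these letters. Single ISRE windows come next for Rsad2, Ifit1, Ifit3 and Ifit3b, which lie beside other genes of the group, and for Ddx60 and Usp18, which hold 2 cores each and lie apart from the others. A core that reads as TTTC, any 2 bases and TTTC lies on the other strand.
Rsad2, chr12:26506556-26506577, minus strand: tccaacTTTCATTTTCagaaaa
Ifit1, chr19:34618179-34618200, plus strand: cttcagTTTCACTTTCcagtct
Ifit1, chr19:34618198-34618219, plus strand: tctcagTTTCAGTTTCtcactg
Ddx60, chr8:62381062-62381083, plus strand: tgaatgGAAACCGAAActtaaa
Ddx60, chr8:62381096-62381117, plus strand: agaagaGAAACCGAAActatcc
Usp18, chr6:121222776-121222797, plus strand: cctgagTTTCGCTTTCctttgg
Usp18, chr6:121222800-121222821, plus strand: ctagggGAAAACGAAAgcttgg
Ifit3, chr19:34560767-34560788, plus strand: ggtaagTTTCACTTTCctcttc
Ifit3, chr19:34560801-34560822, plus strand: agtctgTTTCAGTTTCtacttt
Ifit3b, chr19:34585163-34585184, plus strand: ggtaagTTTCACTTTCctcttc
Ifit3b, chr19:34585197-34585218, plus strand: agtctgTTTCAGTTTCtacttt
The windows of Ifit3 and Ifit3b have the same letters. Of the 41 promoters, 14 (34.1%) held at least 1 ISRE core, against 3.68% of the promoters of the 15415 protein-coding genes tested. The gamma-activated site, searched as TTCNNNGAA on both strands, was in 5 (12.2%) against 7.67% of all. An ISRE core lay in 8 of the 20 genes (40%) with a higher slope at an unadjusted p under 0.05 and in 6 of the other 21 (28.6%).

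**Figure D1:**
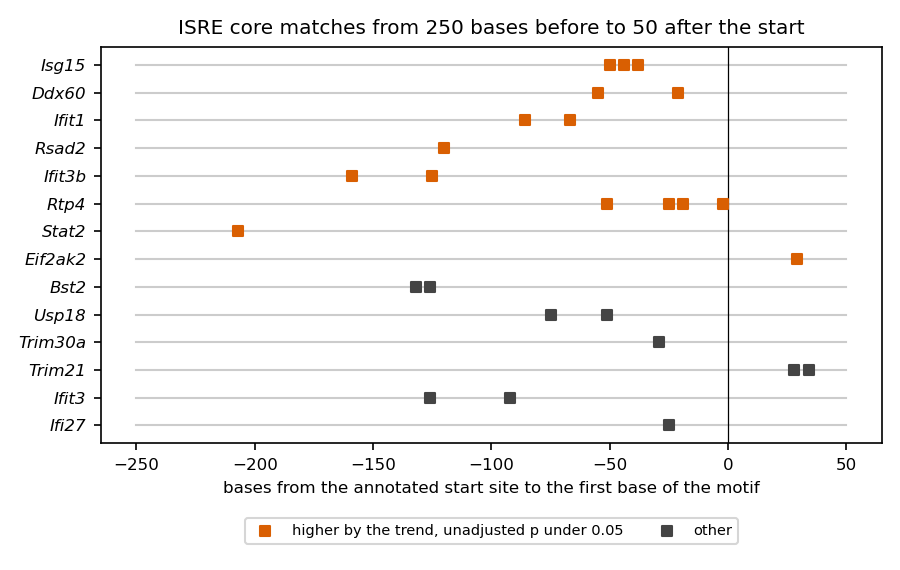
Position of each ISRE core match (squares) in the 14 promoters that held one, in bases from the annotated transcript start (0) to the first base of the match; grey lines span the window searched. Orange squares belong to genes with a higher slope over RPS percent at an unadjusted p under 0.05 and dark squares to the others, and both kinds lie mostly before the start.

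Transcript levels of the group differed between genes far more than between diets. Per kilobase of transcript, the mean level in the 0% RPS mice ran from 0.525 CPM for Ifi44 to 147 CPM for Ly6e, with a median of 6.92 CPM per kilobase. The 15 genes under 10 CPM in the controls, among them Isg15, Mx1, Ifit1 and Rsad2, had a median log2 fold change at 10% RPS of 0.53 (range 0.094 to 1.2). The 26 genes at or above 10 CPM had a median of 0.16 (range -0.27 to 0.52). The control level that set this split is also the base of the fold change, and all tested genes were not split this way. The 2 medians are therefore a description with no test.

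At 10% RPS, 33 of the 41 genes had a log2 fold change above 0 against the 0% RPS mice, where 46.8% of all tested genes did. The median change of the 41 was 0.21 on the log2 scale, with a range of -0.27 to 1.2, and that of all tested genes was -0.015. No gene of the group passed edgeR's quasi-likelihood test with an adjusted p no higher than 0.05 and a change of 1.5-fold or more, the limits for a called gene (0.0391% of all genes were called). At an unadjusted p under 0.05, 19 genes were higher (7.32% of all genes were) and 1, Ifi27, was lower (7.87% of all genes were). DESeq2, at the same thresholds, called 3 genes higher, Mx1, Isg15 and Rsad2 (0.818% of all). In 1 gene, Mx1, all 5 mice on 10% RPS lay above all 5 controls (1.13% of all genes), and in 7 further genes 4 of the 5 did (3.62% of all genes).

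At the lower doses, against the same 5 controls, the medians lay closer to 0. At 5% RPS, 30 genes had a log2 fold change above 0 (48% of all) and the median was 0.11. None was called by edgeR (0% of all) or by DESeq2 (0.195% of all), and at an unadjusted p under 0.05, 7 genes were higher (4.69% of all) and Ifi27 was lower (4.5% of all). The 7 were Mx1, Parp12, Samd9l, Eif2ak2, Parp9, Parp14 and Herc6. At 2% RPS, 29 genes had a change above 0 (49.6% of all), with a median of 0.063. None was called by edgeR (0% of all) or DESeq2 (0.00386% of all), and none had an unadjusted p under 0.05 (1.41% of all).

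A linear trend over RPS percent was called, with an adjusted p no higher than 0.05, for 3 genes, all higher (1.15% of all genes were called higher): Mx1, Isg15 and Parp12. At an unadjusted p under 0.05, 20 genes had a higher slope (9% of all) and Ifi27 a lower one (10.1% of all). DESeq2 called a trend for 11 genes (5.61% of all), adding Rsad2, Eif2ak2, Ddx60, Helz2, Rtp4, Lgals3bp, Stat2 and, with a lower slope, Ifi27. A difference among the 4 diets in any pattern was called for none by edgeR (0.0727% of all) and for Mx1 and Parp12 by DESeq2 (2.01% of all), with 13 genes at an unadjusted edgeR p under 0.05 (10.6% of all). No trend was called by edgeR when groups followed the treatment label or when the 3 mice with conflicting labels were left out. With each mouse left out in turn, the number of edgeR trend calls ran from 0 (without mouse RS10_784) to 16 (without mouse RS10_727), with 10 without mouse RS10_703, 6 without mouse RS10_715 and 1 without mouse RS10_731. With all libraries thinned to the depth of the smallest, 3 trends were called, with Helz2 in place of Isg15. The share of all genes called was not taken for these label, left-out and thinned settings. Their counts therefore show how far the calls depend on the mice and settings, and cannot be set against all genes.

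**Figure D2:**
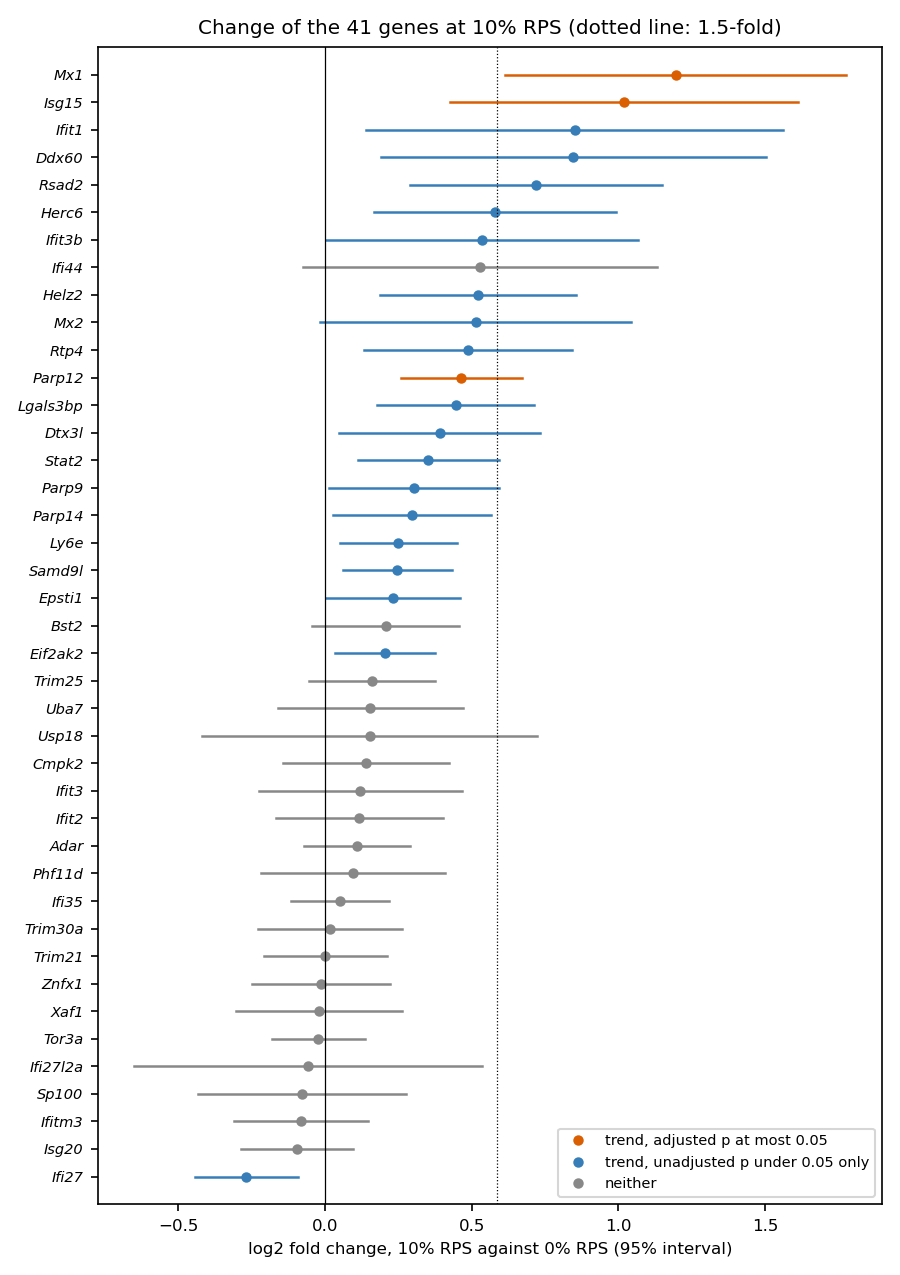
Log2 fold change at 10% RPS against 0% RPS for each of the 41 genes (points) with its 95% interval from the edgeR fit (lines), ordered by size. Orange marks the 3 genes with a called trend and blue those with an unadjusted trend p under 0.05 only; Mx1 stands at 1.2 at the top and Ifi27 at -0.27 at the bottom.

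Mx1 and Mx2 encode interferon-induced dynamin-like GTPases that block viral nucleocapsids. Mx1 read 2.86, 4.84, 4.57, 2.62 and 2.68 CPM in the 0% RPS mice and 2.98, 3.97, 3.82, 5.02 and 4.76 CPM at 2%. It read 4.66, 4.87, 8.32, 10.1 and 3.75 CPM at 5% and 9.66, 5.22, 5.29, 11.6 and 8.39 CPM at 10%. The 10% values all lay above the highest control, while 2 of the 5 mice at 5% set that diet's mean and the others lay near the controls. Mx1 had the highest fold change of the group, from a mean of 3.51 ± 1.09 CPM (SD, n = 5) through 4.11 ± 0.81 at 2% and 6.34 ± 2.73 at 5% to 8.03 ± 2.77 CPM. Its change at 10% RPS was 1.2 ± 0.28 (SE) on the log2 scale, with an adjusted p of 0.0794. The trend was 1.23 ± 0.26 on the log2 scale for 10% RPS (adjusted p = 0.0191), and it was lost without mouse RS10_731 (adjusted p = 0.0566) or mouse RS10_784 (adjusted p = 0.0594). Mx2 moved from 1.79 ± 0.70 CPM at 0% to 2.56 ± 0.29 CPM at 10% RPS, past 1.71 ± 0.33 at 2% and 1.97 ± 0.68 at 5%, with an adjusted trend p of 0.176. In many inbred strains, C57BL/6 included, the Mx1 gene is known to carry a deletion that leaves no full protein, so the transcript level is no measure of Mx1 protein.

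ISG15 is a ubiquitin-like protein, UBA7 is its activating enzyme, HERC6 the mouse ligase and USP18 the protease that removes it and dampens the receptor. Isg15 read 2.52, 4.72, 3.60, 2.20 and 3.07 CPM in the controls, 3.58, 2.62, 3.99, 5.13 and 3.54 CPM at 2%, and 3.50, 2.92, 5.18, 4.56 and 3.04 CPM at 5%. At 10% RPS it read 6.62, 2.88, 5.89, 11.9 and 5.22 CPM. The 2% and 5% values overlapped the controls, and at 10% RPS 4 of 5 mice lay above every control while mouse RS10_727 lay among them. The mean went from 3.22 ± 0.99 CPM through 3.77 ± 0.91 and 3.84 ± 0.99 to 6.50 ± 3.33 CPM, with a log2 fold change of 1.02 ± 0.29 (adjusted p = 0.103) and a called trend of 0.98 ± 0.25 for 10% RPS (adjusted p = 0.0434). That call was lost in limma-voom (adjusted p = 0.0579), with no filter on low counts (adjusted p = 0.0565), over the rank of the dose (adjusted p = 0.0614) and with thinned counts (adjusted p = 0.0502). It was also lost without RS10_731, which carried the highest value (adjusted p = 0.161), and, with an adjusted p of 0.0507 to 0.0918, without any of RS10_701, RS10_707, RS10_708, RS10_709, RS10_712, RS10_748, RS10_716, RS10_717, RS10_725, RS10_729 and RS10_784.

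The other genes of ISG15 conjugation showed less. Herc6 stood at 4.72 ± 1.0, 5.90 ± 1.64, 6.33 ± 1.41 and 7.03 ± 1.74 CPM over the 4 diets (trend, adjusted p = 0.129). Uba7 stood at 48.3 ± 7.18, 51.9 ± 5.92, 58.2 ± 16.6 and 53.8 ± 7.83 CPM (trend, adjusted p = 0.602). Usp18 read 1.90, 3.64, 2.11, 1.84 and 2.53 CPM in the controls, 1.69, 2.05, 1.82, 3.06 and 2.32 CPM at 2%, 1.59, 2.25, 2.67, 3.92 and 1.38 CPM at 5%, and 3.12, 2.23, 2.60, 3.84 and 1.53 CPM at 10%. Its values, with diet means of 2.41 ± 0.74, 2.19 ± 0.55, 2.36 ± 1.01 and 2.67 ± 0.88 CPM, overlapped in all 4 diets, although its promoter holds 2 ISRE cores. The log2 fold change at 10% was 0.15 with a 95% interval of -0.42 to 0.72, wide enough to hold a change of the size seen for Herc6.

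The IFIT genes lie together on chromosome 19 and encode proteins that bind foreign RNA ends. Ifit1 read 3.26, 7.40, 4.13, 1.87 and 3.44 CPM in the controls, 3.30, 4.14, 4.96, 4.54 and 5.01 CPM at 2%, 3.54, 2.72, 6.22, 4.46 and 6.52 CPM at 5%, and 8.86, 3.05, 7.51, 11.7 and 4.98 CPM at 10%. Mouse RS10_703, a control, lay close to the higher mice on 10% RPS, and mouse RS10_727 below the control mean. The mean of 4.02 ± 2.06 CPM went through 4.39 ± 0.70 and 4.69 ± 1.66 to 7.22 ± 3.36 CPM, a log2 fold change of 0.85 ± 0.34 that was not called (adjusted p = 0.243). Ifit3 read 4.90, 4.94, 4.29, 3.75 and 4.43 CPM in the controls, 4.95, 7.39, 5.38, 4.5 and 4.58 CPM at 2%, 3.97, 3.91, 6.29, 4.13 and 4.60 CPM at 5%, and 4.79, 4.35, 3.75, 5.16 and 6.16 CPM at 10%. Its means were 4.46 ± 0.49, 5.36 ± 1.19, 4.58 ± 0.99 and 4.84 ± 0.90 CPM over the diets. It was among the 4 genes with the smallest slope, 0.017 ± 0.16 for 10% RPS, and its interval at 10% ran from -0.23 to 0.47. Ifit2 stood at 7.92 ± 1.38, 7.86 ± 1.12, 7.55 ± 0.53 and 8.60 ± 1.56 CPM over the diets. Ifit3b stood at 2.22 ± 0.32, 2.36 ± 0.88, 2.39 ± 0.93 and 3.23 ± 0.77 CPM (trend, adjusted p = 0.211). Ifit3 and Ifit3b share 46.7% and 47.8% of their transcripts' stretches of 50 bases, the read length, with each other, so their separate levels are uncertain.

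**Figure D3:**
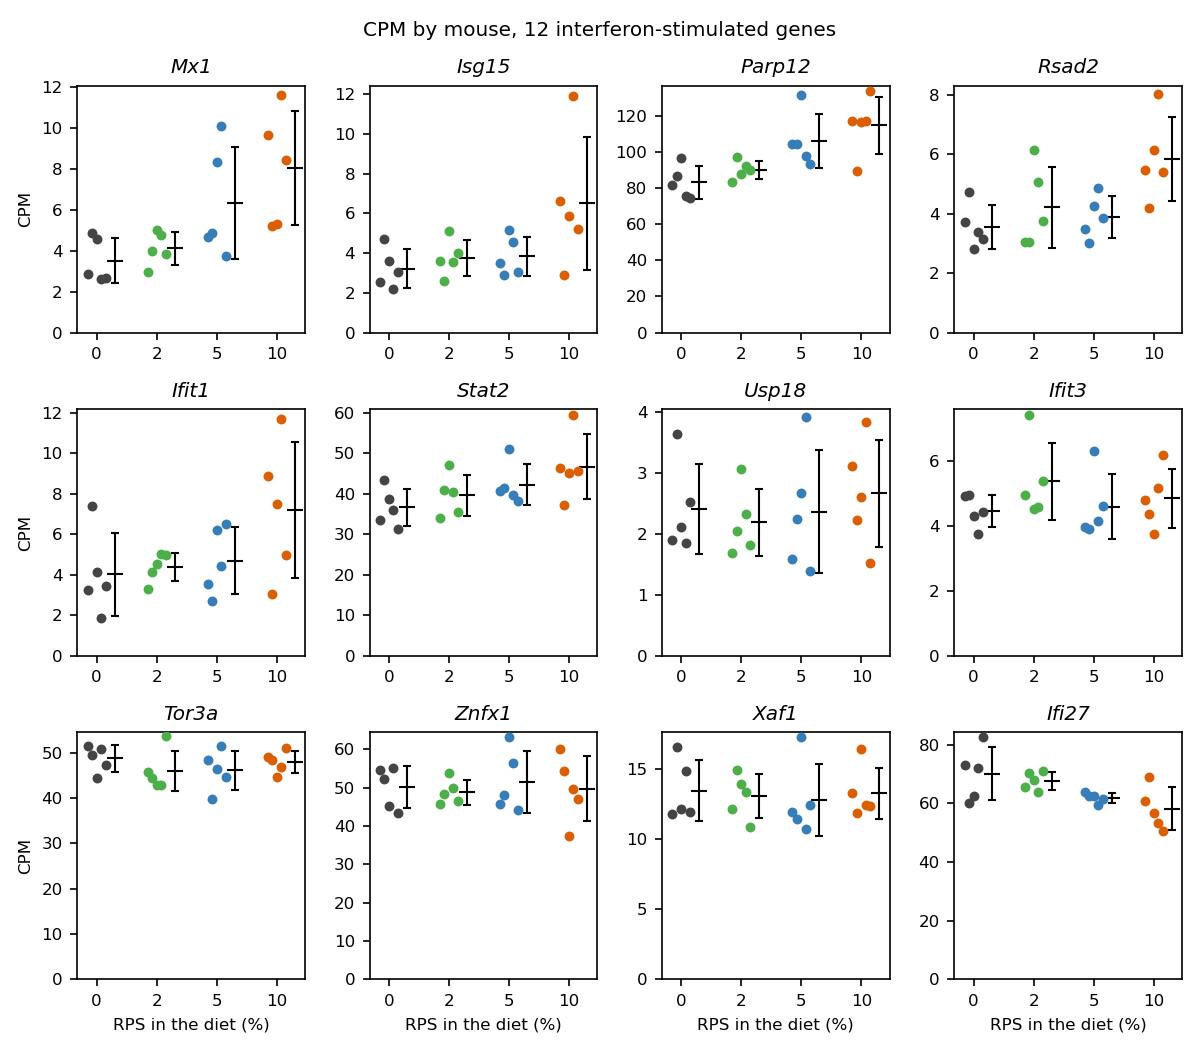
CPM of 12 genes in every mouse (points) by RPS percent in the diet, with the mean and SD beside each group of 5 mice (black); each panel starts at 0 CPM. Mx1, Isg15 and Parp12 have a called trend, Ifit3, Tor3a, Znfx1 and Xaf1 have the smallest slopes, and Ifi27 lies lower at 10% RPS.

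Of the enzymes that act on RNA or nucleotides, Rsad2 (viperin, which makes a chain-terminating nucleotide) had the highest fold change of 5. It read 3.71, 4.75, 2.83, 3.39 and 3.13 CPM in the controls, 3.06, 3.05, 3.76, 6.16 and 5.08 CPM at 2%, 3.47, 3.01, 4.26, 4.85 and 3.84 CPM at 5%, and 5.48, 4.19, 6.14, 8.04 and 5.41 CPM at 10%. All mice on 10% RPS but mouse RS10_727 lay above the highest control, and the 2% and 5% mice overlapped the controls. Its diet means were 3.56 ± 0.74, 4.22 ± 1.36, 3.89 ± 0.71 and 5.85 ± 1.41 CPM. The log2 fold change was 0.72 ± 0.21 (edgeR adjusted p = 0.113, DESeq2 adjusted p = 0.0307). Cmpk2, its neighbour, which supplies the substrate nucleotide, stood at 7.79 ± 1.05 CPM in the controls and 8.55 ± 1.91 CPM at 10%, with 8.48 ± 0.92 at 2% and 8.68 ± 0.79 at 5%. The log2 ratio of Rsad2 to Cmpk2 lay between -1.42 and -0.93 in the controls and between -0.69 and -0.42 at 10% RPS. This pair was picked from the 12 pairs of listed genes within 100 kb of each other after the values were seen, so the ratio is a description with no test. Eif2ak2 (PKR, a kinase set off by double-stranded RNA) went from 26.4 ± 2.13 CPM through 26.5 ± 1.79 and 29.9 ± 1.84 to 30.3 ± 3.40 CPM (trend, adjusted p = 0.107). Adar, the RNA-editing adenosine deaminase, stood at 47.7 ± 5.60, 47.3 ± 4.74, 52.6 ± 5.26 and 51.5 ± 2.33 CPM. Isg20, an RNA exonuclease, stood at 21.5 ± 2.20, 22.3 ± 2.26, 21.6 ± 1.59 and 20.1 ± 1.92 CPM, with an interval at 10% of -0.29 to 0.094 on the log2 scale.

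All 4 genes of the PARP and DTX3L set, 3 ADP-ribosyltransferases and a partner ligase, had a higher slope at an unadjusted p under 0.05 (9% of all genes did). Parp12, which modifies viral and host proteins and has RNA-binding zinc fingers, read 81.7, 86.9, 96.4, 75.8 and 74.6 CPM in the controls and 83.1, 97, 90.2, 87.6 and 92.0 CPM at 2%. It read 104, 104, 131, 97.5 and 93.0 CPM at 5% and 117, 89.5, 116, 117 and 133 CPM at 10%. At 5% and at 10%, 4 of the 5 mice lay above every control. The mean of Parp12 went from 83.1 ± 8.90 CPM through 89.96 ± 5.18 and 106 ± 14.9 to 115 ± 15.8 CPM, with a log2 change of 0.46 ± 0.10, which is under the 1.5-fold limit (edgeR adjusted p = 0.0659, DESeq2 adjusted p = 0.00345). Its trend, 0.47 ± 0.09 for 10% RPS, had the smallest adjusted p of the group (0.0168), and the call was lost without mouse RS10_784 (adjusted p = 0.0627). Dtx3l, a ubiquitin ligase that pairs with PARP9, stood at 42.3 ± 6.81, 44.6 ± 5.20, 48.4 ± 14 and 55.4 ± 10.1 CPM, and Parp9 at 50.1 ± 6.46, 53.0 ± 3.10, 61.8 ± 18.1 and 61.8 ± 8.17 CPM. Parp14 stood at 55.4 ± 5.78, 60.9 ± 5.76, 67.2 ± 15.7 and 68.0 ± 11.7 CPM. The adjusted trend p of these 3 lay between 0.143 and 0.200. Dtx3l, Parp9 and Parp14 lie within 100 kb of each other on chromosome 16, and mouse RS10_719 was the highest at 5% RPS for each. The 4 genes are therefore not independent observations, and 4 of 4 is no test of the set. Parp9 and Dtx3l overlap at their starts on opposite strands, and whether the counting used strand is not given in the sources used here.

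Among the helicases and other large antiviral proteins, Ddx60 (a helicase that aids RNA sensing) had a mean of 5.44 ± 1.35 CPM in the controls, 5.67 ± 1.31 at 2%, 6.20 ± 1.76 at 5% and 9.75 ± 6.05 CPM at 10%. At 10% its values were 7.26, 4.52, 10.8, 19.8 and 6.35 CPM. Mouse RS10_731 stood apart from the other 4, and the adjusted trend p was 0.0922. Helz2, a nuclear receptor coactivator with helicase domains, stood at 61.0 ± 12.6, 62.3 ± 15, 67 ± 6.95 and 87.4 ± 16.7 CPM (trend, adjusted p = 0.0521). Samd9l, an antiviral factor that halts translation, stood at 60.8 ± 5.61, 62.7 ± 2.26, 74.3 ± 12.6 and 72.2 ± 4.60 CPM (trend, adjusted p = 0.102). Znfx1, a mitochondrial sensor of double-stranded RNA, read 54.8, 52.3, 45.3, 55.2 and 43.3 CPM in the controls, 45.7, 48.3, 46.4, 53.9 and 50 CPM at 2%, 45.8, 48.0, 63.1, 56.3 and 44.1 CPM at 5%, and 60.0, 54.5, 37.3, 49.7 and 47.1 CPM at 10%. Its diets overlapped throughout (means 50.2 ± 5.54, 48.9 ± 3.29, 51.5 ± 8.03 and 49.7 ± 8.51 CPM), with an interval of -0.25 to 0.22 on the log2 scale at 10% RPS.

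None of the 3 TRIM ubiquitin ligases had an unadjusted trend p under 0.05. Of all genes, 9% had a higher and 10.1% a lower slope at this p, so 3 genes are too few to mark the family as flat. Trim21, the cytosolic antibody receptor, stood at 14.6 ± 1.34, 14.4 ± 1.14, 15.3 ± 1.83 and 14.6 ± 1.74 CPM, and Trim30a at 14.9 ± 2.25, 14.7 ± 2.32, 15.3 ± 1.88 and 15.1 ± 1.19 CPM. Their 95% intervals at 10% RPS ran from -0.21 to 0.21 and from -0.23 to 0.26 on the log2 scale. Trim25, which activates RIG-I, stood at 139 ± 20.9, 136 ± 8.15, 139 ± 21.3 and 156 ± 13.7 CPM (interval at 10%, -0.055 to 0.38).

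Of the membrane proteins, Rtp4, a chaperone with 4 ISRE cores at its start, stood at 7.11 ± 1.96, 6.93 ± 1.14, 7.69 ± 1.71 and 9.96 ± 1.21 CPM (trend, adjusted p = 0.0691). Ly6e, a surface protein that blocks coronavirus entry, stood at 343 ± 32.5, 370 ± 41.3, 370 ± 38.2 and 408 ± 49.0 CPM (trend, adjusted p = 0.160). Bst2 (tetherin, which holds budding virions) stood at 19.1 ± 2.93, 19.3 ± 1.37, 20.6 ± 3.40 and 22 ± 3.16 CPM. Ifitm3, which blocks fusion in endosomes, stood at 66.6 ± 10.2, 71.7 ± 6.58, 57.0 ± 8.68 and 63.0 ± 6.41 CPM, with an interval at 10% of -0.31 to 0.15.

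Ifi27, a small mitochondrial membrane protein, was the 1 gene of the group with a lower slope at an unadjusted p under 0.05. It read 73.0, 60.1, 62.4, 72.0 and 82.6 CPM in the controls, 65.4, 70.4, 71.1, 67.8 and 63.7 CPM at 2%, 63.8, 62.5, 62.5, 59.3 and 61.6 CPM at 5%, and 60.9, 69.2, 56.9, 53.3 and 50.5 CPM at 10%. At 10% RPS, 3 mice lay under the lowest control, and the diet means were 70.0 ± 9.05, 67.7 ± 3.14, 61.9 ± 1.66 and 58.2 ± 7.28 CPM. The log2 fold change was -0.27 ± 0.08 (adjusted p = 0.136) and the trend -0.28 ± 0.08 (edgeR adjusted p = 0.0560, DESeq2 adjusted p = 0.0249), so edgeR made no call. Ifi27l2a, which overlaps Ifi27 on the other strand of chromosome 12, stood at 13.8 ± 3.61, 15 ± 5.94, 12.6 ± 5.51 and 13.2 ± 3.67 CPM. Its interval at 10% was wide, from -0.65 to 0.53.

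The other small interferon-induced genes were mixed. Ifi44 stood at 1.54 ± 0.73, 1.69 ± 0.65, 1.47 ± 0.20 and 2.21 ± 0.76 CPM and Epsti1 at 32.5 ± 1.68, 35.3 ± 2.72, 37.0 ± 4.01 and 38.1 ± 7.67 CPM, with adjusted trend p of 0.327 and 0.253. Ifi35, which binds the protein NMI, stood at 28.3 ± 2.13, 29.0 ± 2.42, 29.0 ± 2.58 and 29.3 ± 2.03 CPM. Xaf1, a pro-apoptotic partner of XIAP, read 11.7, 16.5, 12.1, 14.9 and 11.9 CPM in the controls, 12.1, 14.9, 10.9, 13.9 and 13.3 CPM at 2%, 11.9, 11.4, 17.2, 10.7 and 12.4 CPM at 5%, and 13.2, 11.8, 16.4, 12.4 and 12.3 CPM at 10%. The 4 diets overlapped, with means of 13.4 ± 2.17, 13.0 ± 1.57, 12.7 ± 2.58 and 13.2 ± 1.84 CPM, and the interval at 10% was -0.30 to 0.26.

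Sp100 and Phf11d encode nuclear proteins, the former a component of nuclear bodies. Sp100 stood at 44.0 ± 9.19, 44.2 ± 8.41, 41.1 ± 7.36 and 41.6 ± 10.4 CPM and Phf11d at 3.64 ± 0.32, 3.89 ± 1.02, 3.36 ± 0.40 and 3.89 ± 0.21 CPM. Lgals3bp, a secreted glycoprotein that binds galectin-3, stood at 96.1 ± 21.1, 98.3 ± 17.7, 96.8 ± 7.09 and 131 ± 16.4 CPM (10% RPS, adjusted p = 0.117, and trend, adjusted p = 0.0565). Tor3a, an ATPase of the endoplasmic reticulum lumen, had the smallest slope of the group, -0.00090 ± 0.067 on the log2 scale for 10% RPS. It read 51.6, 49.6, 44.5, 51.0 and 47.3 CPM in the controls, 45.8, 44.5, 53.8, 43.0 and 43.0 CPM at 2%, 48.4, 39.7, 46.4, 51.5 and 44.6 CPM at 5%, and 49.1, 48.5, 44.6, 47.0 and 51.1 CPM at 10%. The 4 diets overlapped, with means of 48.8 ± 2.89, 46.0 ± 4.52, 46.1 ± 4.42 and 48.0 ± 2.42 CPM, and its interval at 10% RPS was -0.18 to 0.13.

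Stat2, the signal transducer that carries the interferon signal to the ISRE, read 33.6, 43.3, 38.7, 36.0 and 31.3 CPM in the controls, 34.1, 40.9, 35.5, 47.0 and 40.4 CPM at 2%, 40.6, 41.5, 51.0, 39.6 and 38.2 CPM at 5%, and 46.2, 37.1, 45.0, 59.4 and 45.6 CPM at 10%. At 10% RPS, 4 of the 5 mice lay above the highest control and mouse RS10_727 lay close to the control mean. The diet means were 36.6 ± 4.66, 39.6 ± 5.13, 42.2 ± 5.09 and 46.7 ± 8.04 CPM. The log2 fold change was 0.35 ± 0.12 (adjusted p = 0.156) and the trend 0.34 ± 0.10 (edgeR adjusted p = 0.0780, DESeq2 adjusted p = 0.0389).

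**Figure D4:**
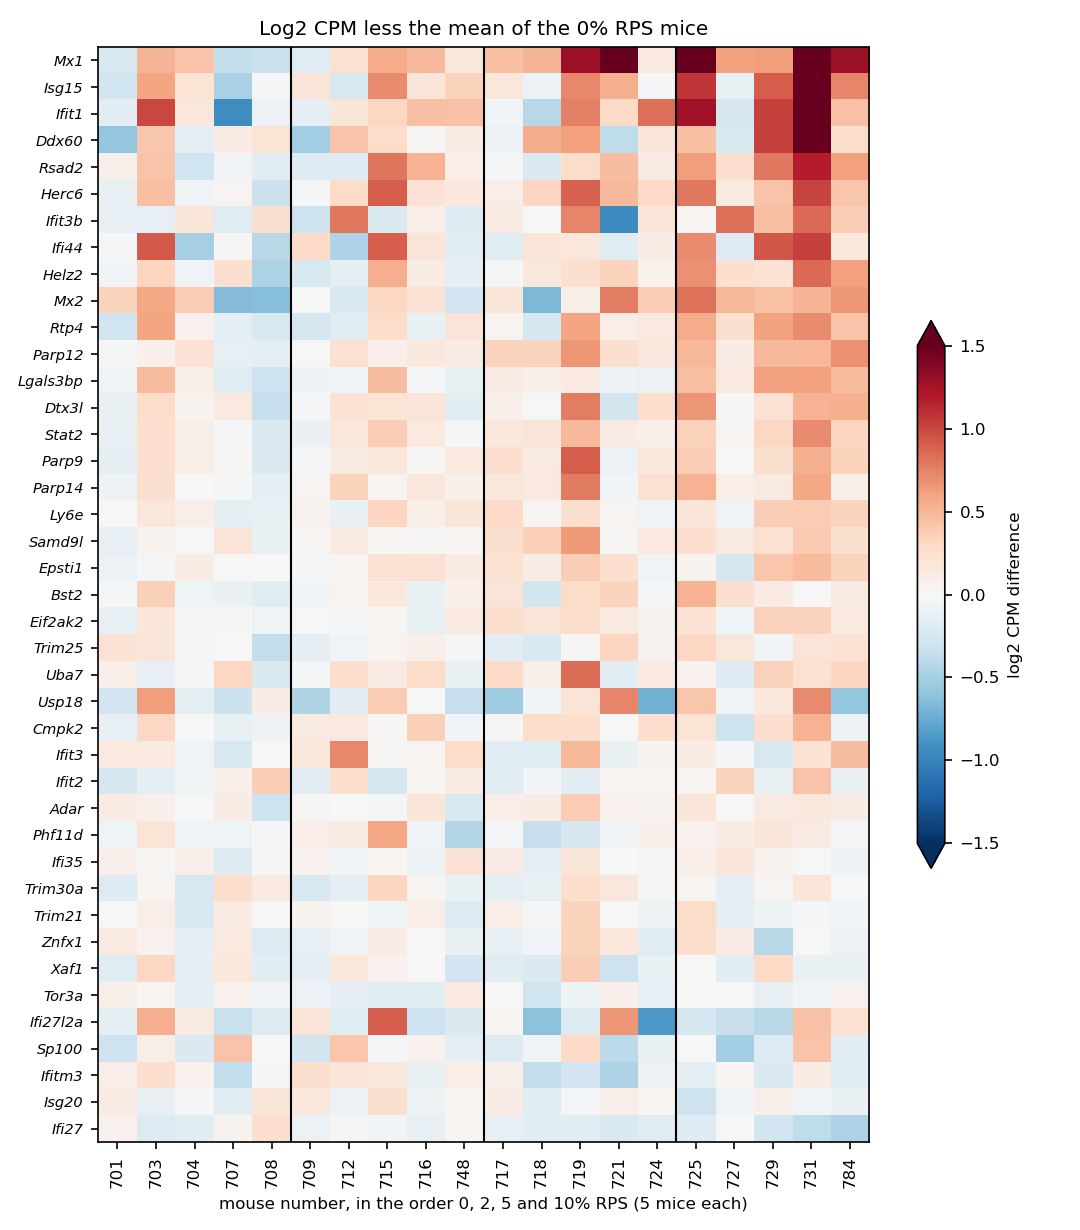
Log2 CPM of the 41 genes (rows, ordered by fold change at 10% RPS) in the 20 mice (columns, by diet, black lines between diets), less the mean of the 0% RPS mice. Red is higher and blue is lower, with the scale ending at 1.5 in each direction; mouse RS10_731 is the reddest column and Ifi27 the bluest row at 10% RPS.

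The values of a mouse tended to be high or low over many of the 41 genes at once. Counted against each gene's median over the 20 mice, the controls had between 10 and 31 genes above it (median 12), the 2% RPS mice between 10 and 29 (median 18), the 5% mice between 13 and 33 (median 18) and the 10% mice between 16 and 35 (median 31). Control mouse RS10_703 had 31 genes above the median and mouse RS10_727 on 10% RPS had 16, so the diets overlapped in this count. Mouse RS10_731 was the highest of its diet for 24 genes and the highest of all 20 mice for 16, and mouse RS10_727 was the lowest of the 10% RPS mice for 24. Mouse RS10_719 was the highest of the 5% mice for 23 genes, and mouse RS10_703 the highest control for 25.

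**Figure D5:**
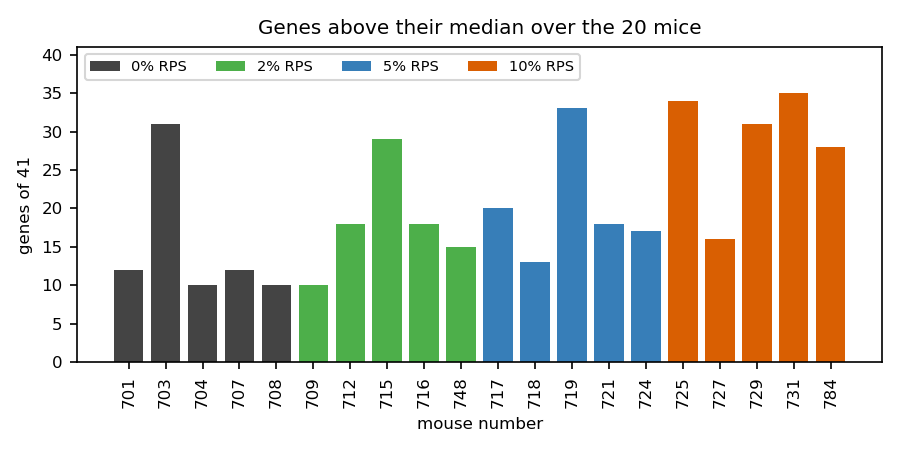
Number of the 41 genes that lay above their median over the 20 mice, for each mouse, coloured by RPS percent. Control RS10_703 (31 genes) stands among the higher mice and mouse RS10_727 on 10% RPS (16 genes) among the lower ones.

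Other genes of the interferon pathways were read from a list of 50, of which 36 had enough counts to be tested. The list holds ligands, receptors, kinases, transcription factors, sensors and adaptors, and also inhibitors and an enzyme of ISG15 conjugation. Interferon gamma and its receptor genes are among them. Of these, 3 had a called higher trend and none a lower one by edgeR (1.15% of all genes were called higher), and 8 had a called trend by DESeq2 (5.61% of all). At 10% RPS, 1 was called (0.0391% of all), and at an unadjusted p under 0.05, 13 were higher (7.32% of all) and none lower (7.87% of all). Of the 14 interferon ligands, 11 were not analysed here, and Ifnz, Ifnl2 and Ifng were under the count filter, with a summed level of at most 0.151 CPM in any mouse. No receptor or kinase gene was called. Ifnar1 stood at 39.8 ± 3.60 CPM in the controls and 40.3 ± 5.60 CPM at 10% RPS, and Ifnar2 at 9.63 ± 1.33 and 8.13 ± 1.27 CPM. Jak1 and Tyk2 had adjusted trend p of 0.196 and 0.783.

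The transcription factor Irf1, which both interferon types and other cytokines induce, rose at 10% RPS, to 209 ± 25.4 CPM against 134 ± 16.2 CPM, with a log2 change of 0.64 ± 0.10 (adjusted p = 0.00929). Irf7, the amplifier of type I interferon, had a called trend of 0.36 (45.8 ± 6.97 to 59.4 ± 5.23 CPM, adjusted p = 0.0489). So had Usp25, a deubiquitinase of the pathway, from 51.3 ± 3.19 to 60.5 ± 2.97 CPM (adjusted p = 0.0246). Irf9 stood at 32.2 ± 5.98 CPM in the controls and 40.4 ± 4.95 CPM at 10% RPS (trend, adjusted p = 0.104). Of 5 genes that respond mainly to interferon gamma, Cxcl10 had a called trend, from 0.942 ± 0.38 to 2.32 ± 1.09 CPM (adjusted p = 0.0335). Ciita, Cxcl9, Ido1 and Cd274 had none (1.15% of all genes were called higher). At 10% RPS, 3 of these 5 genes were higher at an unadjusted p under 0.05 (7.32% of all genes were) and none was lower.

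Cell type markers moved with some of these values in whole tissue, where a change in the number of cells and a change in RNA per cell cannot be told apart. The summed level of 4 plasma cell genes (Jchain, Mzb1, Derl3, Tnfrsf17) ran from 69.9 to 633 CPM in the controls and 137 to 493 CPM at 2%. It ran from 172 to 394 CPM at 5% and 309 to 735 CPM at 10% RPS. Of the 4, 1 was called higher by trend (1.15% of all genes were). At 10% RPS, 2 of them were higher at an unadjusted p under 0.05 (7.32% of all genes were). The highest mouse for this sum was RS10_703 among the controls, RS10_715 at 2%, RS10_719 at 5% and RS10_725 at 10%. These mice had 31, 29, 33 and 34 of the 41 interferon-stimulated genes above the median. At 10% RPS the orders differed: RS10_731, with 35 genes above the median, had 448 CPM of these markers, RS10_729 (31 genes) had 481 CPM, RS10_727 (16 genes) had 326 CPM and RS10_784 (28 genes) had 309 CPM. The 6 macrophage genes summed to between 131 and 273 CPM in the controls and 125 to 171 CPM at 10%. Of the 6, 4 were lower at 10% RPS at an unadjusted p under 0.05 (7.87% of all genes were) and none was called (0.0391% of all genes were). The 7 colon epithelium genes summed to between 5792 and 7360 CPM in the controls and 7049 to 8497 CPM at 10%. Of the 7, 2 were called higher by trend (1.15% of all genes were). At 10% RPS, 4 of them were higher at an unadjusted p under 0.05 (7.32% of all genes were). The part of these cell types in the changes of the 41 genes was not tested. The 4 neutrophil genes summed to between 0.844 and 2.50 CPM in the controls and 1.54 to 3.10 CPM at 10%. Of the 4, 3 were under the count filter and the 1 tested was not called (0.0391% of all genes were at 10% RPS). S100a8 and S100a9, which belong to this list, lay at or near 0 in each diet. Their means were 0.0798 and 0.0360 CPM in the controls and 0.130 and 0.0544 CPM at 10%. Of 2 genes of plasmacytoid dendritic cells, which make type I interferon, Siglech stood at 2.02 ± 0.33 CPM in the controls and 1.23 ± 0.73 CPM at 10% RPS (adjusted p = 0.242) and Cox6a2 was under the count filter. Leukocyte genes overlapped in all diets, at 83.0 to 166 CPM in the controls and 117 to 167 CPM at 10% RPS, none of 5 called (0.0391% of all genes were at 10% RPS). The sums of 5 T cell genes (3.22 to 10.3 CPM in the controls, 5.60 to 10.9 CPM at 10%) overlapped as well. So did those of 5 B cell genes (9.07 to 92.3 and 56.9 to 105 CPM). None of these T cell and B cell genes was called (0.0391% of all genes were at 10% RPS). At 10% RPS, 1 T cell gene was higher at an unadjusted p under 0.05 (7.32% of all genes were). With so few genes called anywhere, lists this short cannot mark these cells as unchanged.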

How the data were processed

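RNA-seq libraries (TruSeq stranded mRNA, single-end reads) were made from the distal colon of 20 mice, 5 per diet. Per the study's methods, the authors mapped reads to GRCm39 in CLC Genomics Workbench, and they deposited whole-number counts per Ensembl gene; the annotation release and strand setting are not given in the sources used here. Identifiers were matched to GENCODE vM39 on GRCm39 (26338 of 26619 found).

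The deposited counts were analysed with edgeR 4.0.16 (filterByExpr with a minimum count of 10, TMM, robust quasi-likelihood fit over the 4 diets grouped by the description label), with Benjamini-Hochberg adjustment over the 17893 genes tested, on R 4.3.3. The linear trend came from a separate robust quasi-likelihood fit on RPS percent, with its own dispersion estimates. A prior count of 2 was used for log2 CPM. Standard errors were derived from the log2 change and its F value in the fit, and the 95% intervals from these. DESeq2 1.42.0, limma-voom (limma 3.58.1), other scaling and filters, the treatment label, leaving out mice and thinned counts were the alternatives. Thinning was chosen after seeing the depths. The edgeR step was tested on simulated data. Each mouse was 1 replicate; counting limits cover counting error only. The counts of 2 mice differed by a chi-square per degree of freedom of 9.74 to 67.9 over the 40 pairs within diets and of 10.6 to 100.1 over the 150 pairs across diets, so no pair agreed within sampling noise.

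The genes, their roles and the pathway and marker lists were chosen with earlier results of these data known. Every gene of the group is named with its diet means. Values of every mouse are given for called genes, for Isg15, Ifit1, Mx1, Rsad2, Usp18 and Stat2, for the 4 smallest slopes, and for the highest and lowest change at 10% RPS.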

Additional observations from a re-analysis of the deposited data

Results flagged for a closer look

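In 17 of the 164 sets of 5 values (41 genes in 4 diets), the highest or lowest mouse lay farther from its neighbour than 0.71 of the range. For independent sets of normally spread values, chance gives about 1 in 20, or 8.2. The genes of a mouse tended to be high or low at once, so the sets are not independent and the count is no test. In 16 of the 17 the mouse apart was the highest of its diet. Mouse RS10_715 at 2% RPS stood high for Herc6 (8.74 CPM, next 5.63) and Lgals3bp (130 CPM, next 93.2). Mouse RS10_719 at 5% RPS stood high for Ifit3 (6.29 CPM, next 4.60), Adar (61.9 CPM, next 51.5), Parp9 (93.2 CPM, next 59.1), Parp14 (94.4 CPM, next 64.8), Xaf1 (17.2 CPM, next 12.4) and Stat2 (51.0 CPM, next 41.5). Mouse RS10_712 at 2% RPS stood high for Ifit3b (3.88 CPM, next 2.36) and Samd9l (66.7 CPM, next 62.0). Mouse RS10_703 at 0% RPS stood high for Cmpk2 (9.62 CPM, next 7.67), Bst2 (24.2 CPM, next 18.5), Ifi44 (2.78 CPM, next 1.46) and Phf11d (4.21 CPM, next 3.56). Mouse RS10_708 at 0% RPS stood low for Adar (38.1 CPM, next 47.7). Mouse RS10_725 at 10% RPS stood high for Trim21 (17.6 CPM, next 14.2). Mouse RS10_748 at 2% RPS stood high for Tor3a (53.8 CPM, next 45.8). Mice RS10_719, with 6 of these, and RS10_703, with 4, had the highest summed plasma cell marker level of their diet (394 and 633 CPM). Mice RS10_715 and RS10_712, with 2 each, had the highest (493 CPM) and the lowest (137 CPM) level at 2% RPS. Of the mice high for 1 gene, RS10_725 had the highest level of its diet (735 CPM) and RS10_748 had 202 CPM. Mouse RS10_708, low for 1 gene, had the lowest level of the controls (69.9 CPM). The part of these cells in the values was not tested.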

How the results depend on the processing

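DESeq2 called 3 genes at 10% RPS in place of 0, 11 trends in place of 3, and 2 genes for any diet difference in place of 0. The 3 trends fell to 0 by the treatment label (adjusted p 0.194 to 0.214) and to 0 without the 3 mice whose labels disagree (0.0569 to 0.106). With 1 mouse left out, genes called at 10% RPS ran from 0 to 3 (3 without mouse RS10_703 or RS10_727, 1 without RS10_721), trends from 0 to 16, any diet difference from 0 to 1, genes higher at an unadjusted p under 0.05 from 11 to 20 at 10% RPS and from 13 to 22 for the trend, the lowest of both without mouse RS10_731. The trend of Isg15 was also lost in limma-voom, with no filter on low counts, over the rank of the dose and with thinned counts, and those of Mx1 and Parp12 were called in each of these. At 2% and 5% RPS, 0 genes were called in every setting run. No paired analysis was possible because each label number names a single mouse in 1 diet. With thinned counts, 20 genes in place of 19 were higher at an unadjusted p under 0.05 at 10% RPS and 3 trends were called, Helz2 in place of Isg15. Apart from DESeq2, the share of all genes called under each of these settings was not taken, so the counts cannot be set against all genes. The cause of these differences was not tested.

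Sign changes were met only in genes with small changes, all far from the threshold (lowest adjusted p 0.66). As log2 values at 10% RPS or as the log2 slope for 10% RPS, they were as follows. In DESeq2, Tor3a 0.0097 for the slope. In limma-voom, Znfx1 -0.0067 for the slope. With RLE scaling, Tor3a 0.010 for the slope. With no filter on low counts, Trim21 -0.0098 at 10% RPS and Znfx1 -0.0035 for the slope. By the treatment label, Usp18 -2.3e-05, Trim21 -0.10, Trim30a -0.011, Tor3a 0.0063 at 10% RPS and Znfx1 -0.062, Trim21 -0.10, Phf11d -0.076, Tor3a 0.042 for the slope. Without the 3 mice whose labels disagree, Trim21 -0.066, Ifi27l2a 0.0073 at 10% RPS and Znfx1 -0.058, Trim21 -0.062, Tor3a 0.011 for the slope. With thinned counts, Ifi27l2a 0.0025 at 10% RPS and Ifit3 -0.043, Tor3a 0.019 for the slope. With 1 mouse left out in turn, the genes that changed sign ran over these ranges at 10% RPS, Usp18 -0.017 to 0.36, Znfx1 -0.090 to 0.076, Trim21 -0.076 to 0.044, Trim30a -0.037 to 0.095, Ifi27l2a -0.21 to 0.11, Xaf1 -0.11 to 0.074, Sp100 -0.23 to 0.051, Tor3a -0.051 to 0.0056 and for the slope, Ifit3 -0.081 to 0.097, Znfx1 -0.065 to 0.096, Trim21 -0.050 to 0.065, Trim30a -0.0083 to 0.086, Xaf1 -0.10 to 0.058, Tor3a -0.029 to 0.024.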
